A study of Mus musculus with 2 samples.

Results

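The Mir26 family of the mouse consists of 3 microRNA (miRNA) genes, Mir26a-1, Mir26a-2 and Mir26b, each inside a gene for a small phosphatase of the Ctdsp group. The members were found by their Ensembl gene identifiers, and all 3 were present among the 1973 miRNA genes counted. The rule uses no measured value, although the family was picked with earlier results of these data known. The data are small RNA libraries from total RNA of skeletal muscle of B6NCrl mice at postnatal day 0. There were 2 libraries, replicate 1 from pup 1 and replicate 2 from pup 2 of the same litter, and their sex was not collected. No genetic alteration or treatment is given in the labels for either pup. Both belong to 1 group, so there was no contrast between conditions, and a test between the libraries compares these libraries only.

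A miRNA gene is transcribed as a long precursor from which a hairpin is cut. One or both arms of the hairpin, named 5p and 3p, then become mature miRNAs, which guide the Argonaute complex to messenger RNAs through the seed. The miR-26 family is known for repressing Ezh2, a histone methyltransferase that holds muscle genes silent in myoblasts, and miR-26a has been linked to differentiation and regeneration of mouse skeletal muscle. The Ctdsp proteins remove phosphates from the tail of RNA polymerase II and take part in keeping neuronal genes silent outside neurons. The miR-26 genes and their hosts are transcribed in the same direction.

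The 3 hairpins are shown so that the stretches they share can be seen. Both mature arms stand in capitals, and the sequences are those of RefSeq on GRCm38.p6, all on the plus strand, for all 3 members.
Mir26a-1: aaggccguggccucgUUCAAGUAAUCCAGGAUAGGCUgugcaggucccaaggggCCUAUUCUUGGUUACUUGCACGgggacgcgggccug
Mir26a-2: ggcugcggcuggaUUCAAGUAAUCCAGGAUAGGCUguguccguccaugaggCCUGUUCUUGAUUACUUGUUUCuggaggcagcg
Mir26b: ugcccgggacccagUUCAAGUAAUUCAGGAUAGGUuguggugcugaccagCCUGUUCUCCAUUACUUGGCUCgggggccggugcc

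The 5 distinct mature sequences follow, with the seed (bases 2 to 8) in capitals. The first is made from both Mir26a hairpins.
miR-26a-5p: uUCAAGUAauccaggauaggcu
miR-26b-5p: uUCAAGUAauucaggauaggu
miR-26a-1-3p: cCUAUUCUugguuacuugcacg
miR-26a-2-3p: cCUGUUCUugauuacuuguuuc
miR-26b-3p: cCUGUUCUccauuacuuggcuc

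All 3 genes carry the seed UCAAGUA in their 5p arm. Among 1679 mature miRNA names in the RefSeq table, the 2 miR-26 5p names were those with that seed. Counted from 1 at the 5′ end of miR-26a-5p, miR-26b-5p differed by the substitutions C11U and C21U over 21 bases compared, both outside the seed. The 3p arms were less alike. Of 22 bases compared, miR-26a-2-3p differed from miR-26a-1-3p at 6, with A4G the substitution inside the seed. The arms miR-26a-2-3p and miR-26b-3p shared the seed CUGUUCU and differed at 4 bases.

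The hairpins lie in introns at like places of their host genes, in each of which 2 further introns follow. Mir26a-1 (ENSMUSG00000065513, chr9:119031796-119031885, mm10) lies in intron 5 of 7 of the coding transcript Ctdspl-201. Mir26a-2 (ENSMUSG00000065430, chr10:126995530-126995613) lies in intron 5 of 7 of Ctdsp2-202. Mir26b (ENSMUSG00000065468, chr1:74394310-74394394) lies in intron 4 of 6 of Ctdsp1-201. The hosts differ widely in size, at 117546 bases for Ctdspl, 21259 for Ctdsp2 and 5777 for Ctdsp1. The introns holding the hairpins were 3283, 1946 and 564 bases long in the same order of hosts. Mir26a-2 has a feature that the others lack in GENCODE M21: the transcripts Ctdsp2-201 and Ctdsp2-203 are annotated to start at position 126995613, the last base of the hairpin. That first exon overlaps the hairpin by 1 base, in the 5′ UTR of Ctdsp2-201. Host gene messenger RNA was not measured in these small RNA libraries.

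**Figure D1:**
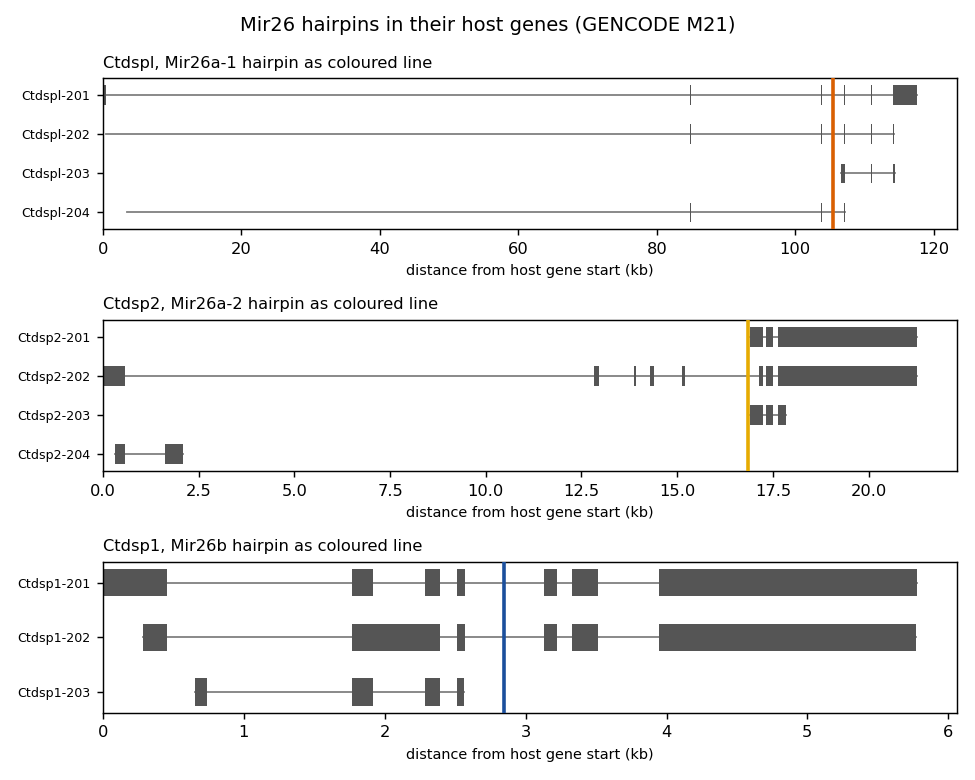
Exons (grey boxes) and introns (thin lines) of every GENCODE M21 transcript of Ctdspl, Ctdsp2 and Ctdsp1, by distance from the host gene start in kb, with each Mir26 hairpin as a coloured line. Mir26a-1 and Mir26b overlap no exon of any transcript shown, and lie outside Ctdspl-203 and Ctdsp1-203 respectively. The Mir26a-2 line touches the start of Ctdsp2-201 and Ctdsp2-203. Each panel has its own scale.

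The libraries held 3754895 counts on the genes' own strand in replicate 1 and 5133949 in replicate 2, and levels are given relative to these totals as counts per 1000000 counts (CPM). Reads that mapped to several places were listed apart from the gene counts and made up 30.2% and 29.9% of all reads. The muscle label was checked against 7 muscle miRNA genes, all of which had counts, with a summed level of 81273 CPM in replicate 1 and 89272 CPM in replicate 2. Nearly all of that sum was Mir206, a muscle-specific miRNA, at 79447 and 87198 CPM. Mir1a-1, Mir133a-1 and Mir133a-2 had 4 to 46 counts in a library. Both Mir1a hairpins share an unbroken stretch of 28 bases, and both Mir133a hairpins share 31 bases. Reads mapping to several places are left out, so these are levels of reads placed at 1 locus and not of miR-1a or miR-133a. Of 6 neuronal genes 5 were listed. Mir124a-1, Mir124a-2, Mir124a-3 and Mir9-2 had 0 counts in both libraries, which allows up to 0.799 and 0.584 CPM each of reads placed at 1 locus. Mir9-3 had 2 counts and 1 count, and Mir9-1 was not analysed here. These counts also leave out reads mapping to several places. They are therefore not levels of the mature miRNAs of the Mir124a and Mir9 genes, and do not show that those are absent. The 7 epithelial and skin genes summed to 5688 CPM in replicate 1 and 230 CPM in replicate 2, and the cartilage gene Mir140 had 6539 and 966 CPM, so both were higher in replicate 1. All of these are levels in bulk tissue, where fewer cells of a type and less RNA per cell cannot be told apart.

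Nearly all counts of the family lay on Mir26b. Mir26b had 68586 counts in replicate 1 and 82022 in replicate 2. Its level was 18266 CPM (exact Clopper-Pearson 95% interval 18131 to 18402) in replicate 1 and 15976 CPM (15868 to 16085) in replicate 2, a mean of 17121 ± 1619 CPM (SD, n = 2). The intervals cover counting error only and did not overlap. Mir26b ranked 16th of 1973 genes in each library taken alone, as well as by the mean. This is a rank by gene counts, which leave out reads mapping to several places.

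Of 854 listed miRNA genes inside a protein-coding gene on the same strand, Mir26b had the 4th highest mean level by the same counts. The genes above it were Mir335 in Mest, Mir126a in Egfl7 and Mirlet7g in Wdr82. In the order of all genes, the next above Mir26b were Mir23a at 19315 ± 787 CPM, Mir379 at 19962 ± 986 CPM and Mir322 at 29178 ± 1772 CPM. The next below were Mir23b at 15861 ± 83.5 CPM, Mir22 at 15371 ± 658 CPM and Mir351 at 13390 ± 1892 CPM (SD, n = 2 throughout). The nearest in level was Mir23b, by 0.11 in mean log2(CPM + 1) over the 2 libraries. The library values of Mir23b, 15920 and 15802 CPM, lay just under the lower value of Mir26b. With n = 2, the means of Mir26b and Mir23b differed by less than the SD of Mir26b, whereas Mir23a, Mir379, Mir22 and Mir351 were further from Mir26b than that SD.

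The Mir26a loci held few counts. Mir26a-2 had 111 counts in replicate 1 and 149 in replicate 2, which are 29.6 CPM (95% interval 24.3 to 35.6) and 29.0 CPM (24.5 to 34.1). The mean was 29.3 ± 0.381 CPM (SD, n = 2), and the libraries overlapped within counting error. Mir26a-1 had 23 counts in replicate 1 and 20 in replicate 2, which are 6.13 CPM (3.88 to 9.19) and 3.90 CPM (2.38 to 6.02), with a mean of 5.01 ± 1.58 CPM (SD, n = 2). These counts also overlapped between the libraries. By mean level Mir26a-2 ranked 222nd and Mir26a-1 ranked 287th of all listed genes. None of the 3 genes had a count on the opposite strand in either library.

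**Figure D2:**
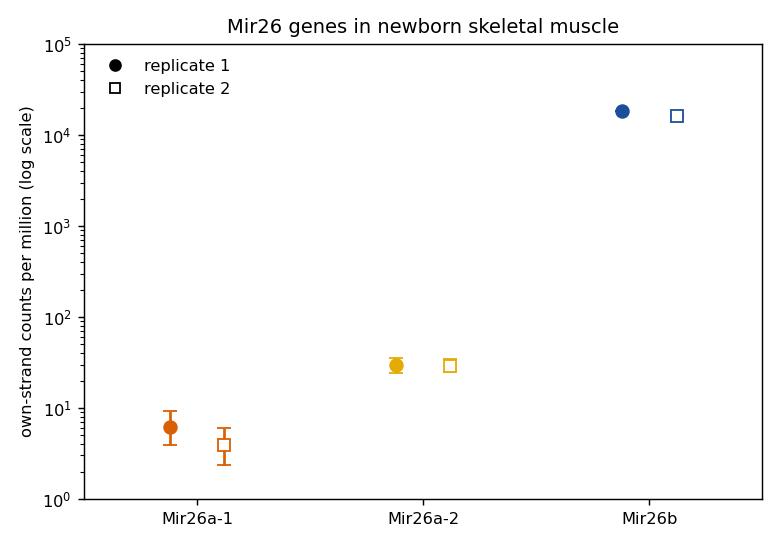
Own-strand CPM (log axis) of Mir26a-1, Mir26a-2 and Mir26b in replicate 1 (filled circles) and replicate 2 (open squares), with exact 95% counting intervals, which are smaller than the symbols for Mir26b. The Mir26a loci lie between 3.90 and 29.6 CPM and Mir26b at 15976 and 18266 CPM.

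The order Mir26a-1, Mir26a-2, Mir26b, low to high, was the same in both libraries, and no counting intervals of different members overlapped. Together the Mir26a loci made up 0.195% of the family's counts in replicate 1 (95% interval 0.163 to 0.231) and 0.206% in replicate 2 (0.176 to 0.239). On the log2(count + 0.5) scale Mir26a-2 stood at -9.18 ± 0.12 relative to Mir26b and Mir26a-1 at -11.74 ± 0.32 (SD, n = 2). The hairpins were 90, 84 and 85 bases long, so dividing the counts by hairpin length would move these log2 values by at most 0.082. Between the copies, Mir26a-2 had 4.83 times the counts of Mir26a-1 in replicate 1 and 7.45 times in replicate 2. Mir26a-1 thus gave 17.2% of the counts of both copies in replicate 1 (11.2 to 24.6) and 11.8% in replicate 2 (7.38 to 17.7). This split did not differ detectably between the libraries (Fisher's exact test, two-sided, p = 0.190, adjusted p = 0.381 over 2 tests). Nor did the share of both Mir26a loci in the family (p = 0.686 by the same exact test, adjusted p = 0.686).

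Reads listed as mapping to several places are not among the counts of the Mir26a loci. The hairpins of Mir26a-1 and Mir26a-2 shared an unbroken stretch of 25 bases, shown because a read inside it has 2 places of origin.
Shared stretch: uucaaguaauccaggauaggcugug
It begins at the first base of miR-26a-5p and runs 3 bases past its 22-base mature form. The longest stretch that Mir26b shared with Mir26a-1 was 11 bases, and with Mir26a-2 it was 10.

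Windows of 22 bases were searched in all listed hairpins, on both strands. Of 69 windows in Mir26a-1, 65 occurred in that hairpin alone, as did 59 of 63 in Mir26a-2 and 64 of 64 in Mir26b. The 4 shared windows of each Mir26a hairpin begin at the start of the 5p arm or within 3 bases after it. A read starting at the first base of miR-26a-5p is found in 1 hairpin from a length of 26 bases on, whereas a read starting 1 or 2 bases earlier is found in 1 hairpin at 15 bases, the shortest length tried. Every window starting within 2 bases of a 3p arm occurred in 1 hairpin in all 3 genes, and so did those at the 5p arm of Mir26b. The search covered miRNA hairpins and not the genome.

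**Figure D3:**
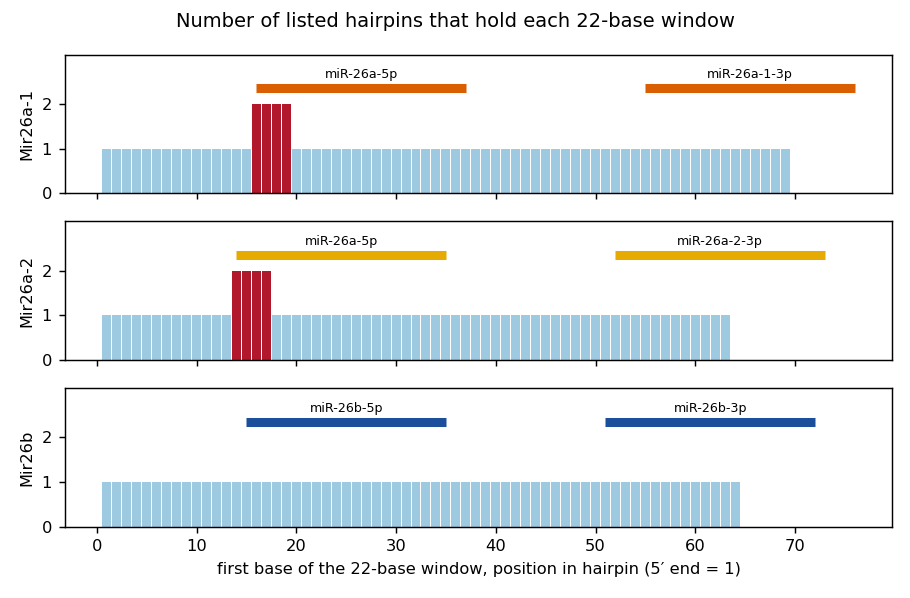
Number of listed miRNA hairpins (y axis) that hold each 22-base window, by the position of its first base in the hairpin of Mir26a-1, Mir26a-2 and Mir26b, with the mature arms as horizontal bars. The 4 windows found in 2 hairpins (dark red) lie at the start of miR-26a-5p in both Mir26a genes, and Mir26b has none.

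The counts are given per gene and not per arm, so the arm behind the 23 to 149 counts of the Mir26a loci was not analysed here. Reads mapping to several places numbered 2156563 in replicate 1 and 2971792 in replicate 2. How many of them carried miR-26a-5p was not tested. The values for Mir26a-1 and Mir26a-2 are therefore levels of reads placed at 1 locus and not levels of miR-26a. The log2 differences to Mir26b do not rank miR-26a against miR-26b. Likewise, the ratio between the copies does not give the part of each locus in miR-26a-5p.

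The same layout was looked at in 14 other families of a fixed list. Each was listed as 2 loci that share a mature sequence, beside 1 or more relatives listed as single-locus. Whether a relative also shares a mature sequence with those loci was not analysed here. If it does, its own counts would leave out those reads too. RefSeq held both loci for 13 of the 15 families including Mir26, and in all 13 the loci shared a mature sequence. In the Mir26 family the Mir26a loci summed to 34.3 CPM, against 17121 CPM for Mir26b, a log2 difference in level of -8.96. In the other 14 families the same difference, the summed shared loci over the median relative, had a median of -2.50 and ran from -13.41 to 3.55. The Mir26 difference was the 2nd lowest of the 15, after that of Mir1a-1 against Mir206 at -13.41, where Mir1a-2 was not analysed here.

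Every shared locus lay below every single-locus relative in the Mir26 family and in 11 of the other 14. The exceptions were the families of Mir16, Mir92 and Mir7. The Mir7 difference, the highest at 3.55, rests on few counts, as Mir7b had 5 in replicate 1 and 11 in replicate 2. Mir7-2, with 1 count in each library, lay below Mir7b, and Mir16-2 also lay below all its relatives. Mir92-1, which lies in the Mir17 cluster, had 910 ± 2.56 CPM, against 304 ± 22.7 CPM for its relative Mir25 (SD, n = 2). In the family most like Mir26 by its difference, Mirlet7c-1 and Mirlet7c-2 summed to 184 CPM, against a median of 20736 CPM over 4 let-7 relatives, a log2 difference in level of -6.82. Mir26a-2 and Mir26a-1 were not extreme among the shared loci. Of 29 listed loci, 16 had a lower mean than Mir26a-2 and 7 a lower mean than Mir26a-1. Of 27 listed relatives, 3 were above Mir26b. The longest stretch shared by the loci of a family was 22 to 31 bases, with 25 in the Mir26 family. These counts describe the list, which was chosen with earlier results of these data known.

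**Figure D4:**
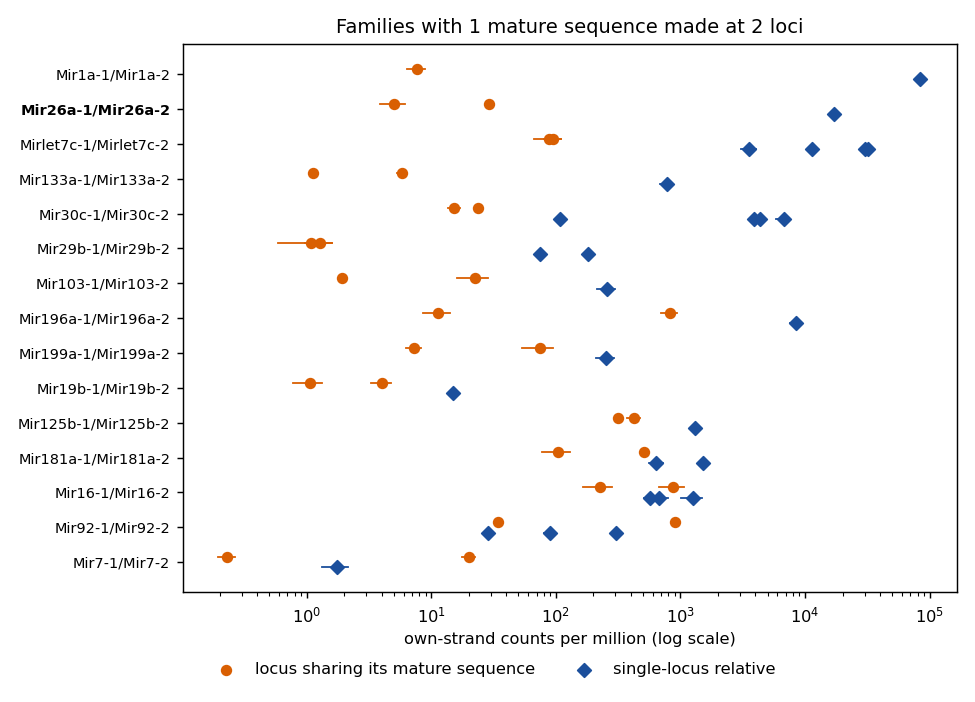
Mean own-strand CPM (log axis) of 2 loci that share a mature sequence (orange circles) and of their single-locus relatives (blue diamonds) in 15 families ordered by the log2 difference between them, with lines joining the values of the 2 libraries. The Mir26 family is 2nd from the top, and in the bottom 3 families at least 1 shared locus lies above a relative.

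The family's share of all own-strand counts was 1.83% in replicate 1 (95% interval 1.82 to 1.84) and 1.60% in replicate 2 (1.59 to 1.61), a mean of 1.72% ± 0.162 (SD, n = 2). Mir26b gave 99.8% of the family's counts in each library. Reads mapping to several places are in neither these counts nor the total, so the share does not give the level of miR-26a and miR-26b together. After TMM scaling, which sets the bulk of the genes level between the libraries, the log2 ratio of replicate 1 over replicate 2 was 0.06 for Mir26b (95% counting interval 0.047 to 0.076). It was -0.10 for Mir26a-2 (-0.47 to 0.26) and 0.52 for Mir26a-1 (-0.41 to 1.46). The scaling moves the direction of the middle value: with total-count scaling the ratio of Mir26a-2 was 0.028. That scaling differs from TMM by the same amount for every gene, and it gave 0.19 for Mir26b.

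An exact binomial test was run on 373 genes with at least 10 counts in total, with Benjamini-Hochberg adjustment over all of them. A gene was called where the adjusted p was under 0.05 and the ratio at least 2-fold. Of the 3 members 0 were called, and over all genes tested 19 were, which is 5.09%. Without the 2-fold minimum Mir26b alone among the members passed (adjusted p = 7.17e-16, exact test), against 49.1% of all genes tested. Mir26b had 150608 counts in all, and its TMM-scaled ratio is small beside the TMM-scaled differences among abundant genes. In the 22 genes with a mean of at least 10000 CPM the median size of the log2 ratio was 0.15. Of these 22 genes, 6 had a smaller one than Mir26b. Under total-count scaling, where the ratio of Mir26b was 0.19, this comparison was not made. For Mir26a-2 the adjusted p was 0.688 and for Mir26a-1 it was 0.417 by the same exact test. The interval of Mir26a-1 includes both no difference and a 2-fold one.

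**Figure D5:**
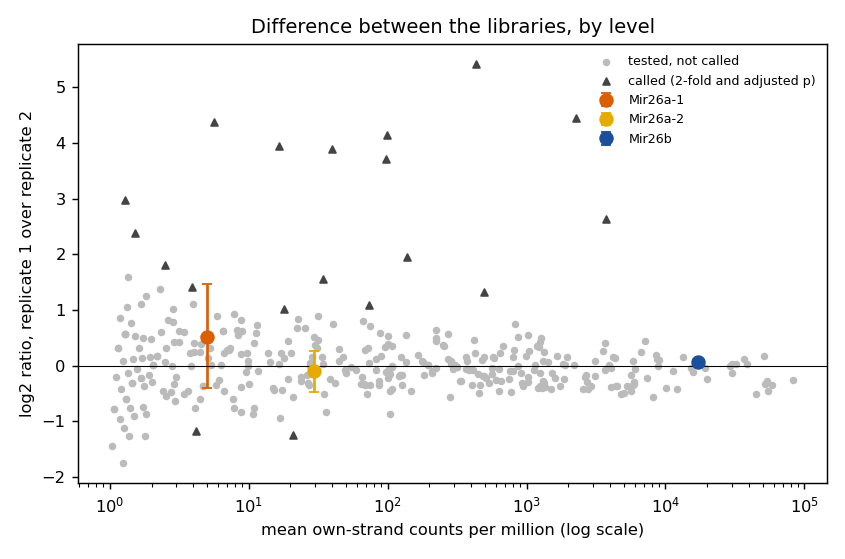
Log2 ratio of replicate 1 over replicate 2 (TMM-scaled) against mean own-strand CPM (log axis) for 373 genes tested, with called genes as triangles and the Mir26 genes in colour with 95% counting intervals. All 3 members lie among the genes that were not called, Mir26b at 0.06, Mir26a-2 at -0.10 and Mir26a-1 at 0.52.

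With the markers of all other tissues left out of the totals and the scaling, a choice made after seeing the data, the log2 ratio was 0.081 for Mir26b, -0.084 for Mir26a-2 and 0.54 for Mir26a-1, and 0 of the 3 were called. The mean level of Mir26b was then 17966 CPM. The largest of the lists left out was endothelium, the gene Mir126a at 40785 CPM in replicate 1 and 36558 CPM in replicate 2. The endothelial, epithelial, skin and cartilage genes were not left out on their own, and their part in these values was not tested.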

How the data were processed

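Small RNA of 2 libraries was counted over miRNA genes. The values are whole-number read counts per gene that the authors deposited for each library on mm10 with annotation M4, per the text deposited with each file; neither aligner nor counter is named in the labels or files. Each file has 3 columns of counts, where the first equals the sum of the other 2 in every gene; the second was read as the gene's own strand, from the layout and totals. The 4 lines that name no gene (47.4% and 48.4% of reads) stayed out of library sizes. Own-strand depth was 3754895 and 5133949 counts.

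Gene names came from GENCODE M21, which matched 1894 of 1973 identifiers, and sequences from RefSeq (GRCm38.p6). TMM factors from edgeR 4.0.16 were 1.05 and 0.955; 0.5 was added to counts in log2 ratios. Tests used scipy 1.17.1, and DESeq2 1.42.0 gave alternative size factors. The named genes were the 3 members, the 3 genes next above and below Mir26b, the fixed families and the tissue markers; genes above Mir26b among those in coding genes were chosen after their values were seen. The members and lists were chosen with earlier results of these data known. Reads carry no molecular identifiers here, so intervals and floors (3 counts) cover counting error only. The pups are littermates, so the spread is that between these samples.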

Additional observations from a re-analysis of the deposited data

How the results depend on the processing

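Of 77 values recomputed under alternatives, 67 stayed within the bound set for their kind: the direction and side of the threshold for a test, 1 SD for a level, share or rank, 1.5 times for a count, and the 95% interval for a share of windows. Some of the 67 could not have moved: each of 2 libraries alone lies within 1 SD of their mean, and counting either strand leaves the ratios of Mir26a to Mir26b as they were, since no member had opposite-strand counts. A pseudocount of 1 cannot alter the adjusted p of the exact test. The bound of 1 SD depends on how close the 2 libraries lay. Counting either strand left Mir26a-1 (SD 1.58 CPM) inside it and put Mir26a-2 (SD 0.381 CPM) outside. Counting either strand gave 26.2 CPM for Mir26a-2, 15297 CPM for Mir26b, a family share of 1.53% and a rank of 18 for Mir26b, and all reads as denominator gave 2.62 CPM for Mir26a-1, 15.3 CPM for Mir26a-2, 8926 CPM for Mir26b and a share of 0.894%; both enlarge the denominator by construction. Leaving out the markers of other tissues gave 30.7 CPM for Mir26a-2. The log2 ratio of Mir26a-2 turned to 0.028 under total-count scaling. Calls between the libraries ran from 13, with at least 50 counts in total, to 22, with total-count scaling, around 19. Changing the filter on counts also changes how many genes are tested. With at least 50 counts Mir26a-1 was not tested. The libraries taken alone gave 1.60% and 1.83% for the family. Matching up to 1 mismatch, over the listed hairpins only since no genome was used, left 63 of 69 windows of Mir26a-1, 57 of 63 of Mir26a-2 and 64 of 64 of Mir26b in 1 hairpin. That search, the search of all M21 hairpins, the tissue-marker settings and the alternatives for the 15 families were added after seeing the data. No paired analysis was possible because the labels give 1 group. Depth limits Mir26a-1, whose 43 counts in all left its log2 ratio anywhere from -0.41 to 1.46.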
